A study of Mus musculus with 14 samples.

Results

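CDK inhibitors and D cyclins were examined in whole mouse heart after local irradiation of the chest. The genes were the 10 rows of the count table, of 54532 in all, whose symbol was that of a CIP/KIP inhibitor (Cdkn1a, Cdkn1b and Cdkn1c), an INK4 inhibitor (Cdkn2a, Cdkn2b, Cdkn2c and Cdkn2d) or a D-type cyclin (Ccnd1, Ccnd2 and Ccnd3). Each symbol was found once. The 14 libraries came from 14 wild-type male C57BL/6J mice, 1 heart each, that were 8 weeks old at irradiation. The IRR_1d group (n = 3) and the IRR_6w group (n = 4) had received 30 Gy of γ-rays to the anterior chest and were sampled after 1 day and after 6 weeks. The Control_1d group (n = 3) and the Control_6w group (n = 4) were not irradiated and were sampled at the same times. The irradiated mice were under pentobarbital anesthesia with lead over the rest of the body, and the sources used here do not say whether the controls were anesthetized. None of the groups carried a transgene or a deletion.

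D-type cyclins bind the kinases Cdk4 and Cdk6 and start the phosphorylation of the retinoblastoma protein, which frees E2F factors and lets a cell leave G1. INK4 inhibitors bind these 2 kinases alone and block them. CIP/KIP inhibitors hold back the kinase complexes of the later G1 and S phases, and they also help D cyclins and their kinases to assemble. The p53 protein induces Cdkn1a after DNA damage, and Cdkn1a and Cdkn2a are the inhibitors most often used as markers of senescence. Most adult cardiomyocytes do not divide, so that cycling in the adult heart lies mostly in endothelial cells, fibroblasts and immune cells.

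The deposited values were whole-number read counts per gene, between 13336746 and 16837265 in total per library. Levels are given as CPM, the count relative to the TMM-scaled library total, or as FPKM, which is the same value per kilobase of the deposited gene length. Levels of different genes were compared only as FPKM, and read counts of overlapping genes are given only to show how many reads they could share. In whole tissue, fewer cells of a type and less RNA per cell cannot be told apart. Control_6w replicate 3 stood apart with 4832 CPM summed over 10 thymocyte markers, against at most 69.8 in the other libraries, and Rag1, Tcf7 and Lck reached 1128, 1214 and 598 CPM there. Its 7 cardiomyocyte markers summed to 4407 CPM, the lowest of all libraries, which otherwise ran from 7880 to 38060 CPM. IRR_6w replicate 1 held 355 CPM of lung epithelium markers (next library 29.3), mainly Scgb1a1, and 2841 CPM of atrial markers (next library 1945, in IRR_1d replicate 3). It also held 62990 CPM of erythroid markers (next library 33660, in Control_1d replicate 3). Control_1d replicate 1 and IRR_6w replicate 3 had the fewest genes with a count, 13468 and 14074, against 15677 to 23649 in the other 12 libraries. The genes that cardiomyocytes are defined by were detected in every group, none of the 7 being at 0.

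Of the 10 genes, 9 had enough counts to be tested among 16034 genes. Cdkn2a had too few and was kept out of the fit. A gene was called when its fold change was above 2 or below 0.5 and its Benjamini-Hochberg adjusted p over all tested genes was under 0.05 (edgeR quasi-likelihood test). By this rule 0 of the 9 genes were called 1 day after irradiation (0.0249% of all tested genes) and 0 at 6 weeks (0.256% of all genes). At an unadjusted p under 0.05, edgeR had 1 of 9 genes at 1 day (2.9% of all genes) and 6 of 9 at 6 weeks (8.81% of all genes). With DESeq2, the tool of the study, fitted here on the 2 groups compared with the same limits, 1 gene was called at 1 day (Cdkn1a, against 0.404% of all genes with an adjusted p) and 3 at 6 weeks (Cdkn1a, Cdkn1c and Ccnd1, against 2.13% of all genes). With limma-voom 0 were called at either time. At 1 day, all IRR_1d libraries lay above all Control_1d libraries for 1 of the 9 genes (6.52% of all genes) and below them for 1 (4.14%). At 6 weeks, 3 lay entirely above (4.08% of all genes) and 1 entirely below (1.64%).

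**Figure D1:**
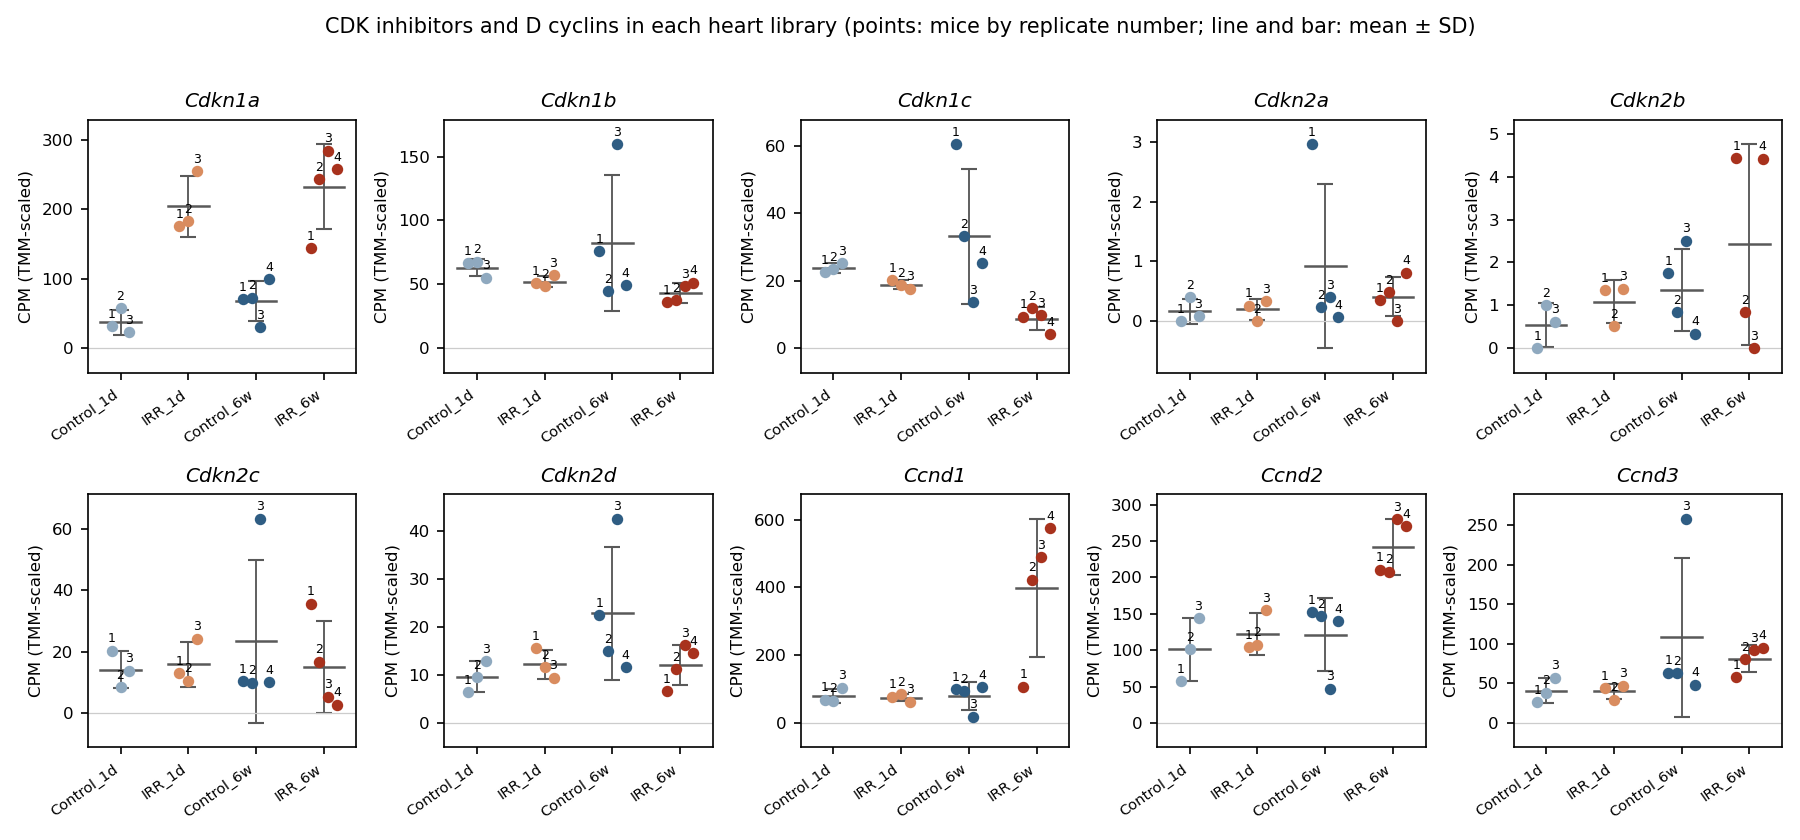
CPM (TMM-scaled) of the 10 genes in each of the 14 heart libraries, with 1 point per mouse labelled by its replicate number and the mean ± SD of each group as a line and bar. Cdkn1a was between 144 and 284 CPM in the 7 irradiated hearts and at most 99.5 CPM in the 7 controls, Ccnd1 was at 422 CPM or more in 3 IRR_6w hearts, and Control_6w replicate 3 was the highest library for Ccnd3, Cdkn1b, Cdkn2c and Cdkn2d.

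Cdkn1a (ENSMUSG00000023067, chromosome 17, 29090976 to 29100727, plus strand, GRCm38) encodes p21, the CIP/KIP inhibitor that p53 induces. It was at 31.6, 58.0 and 23.2 CPM in Control_1d and at 176, 183 and 255 CPM in IRR_1d. All IRR_1d hearts were above all Control_1d hearts. The log2 fold change was 2.44 (SE 0.444), which is 5.44-fold, with an edgeR adjusted p = 0.187 and an unadjusted p = 7.00e-05, so that it was not called by edgeR. DESeq2 on the 2 groups gave 2.46 with an adjusted p = 1.00e-06. In Control_6w the level was 70.6, 72.9, 30.2 and 99.5 CPM, and in IRR_6w 144, 244, 284 and 258 CPM. The groups again did not overlap, with the lowest irradiated heart being replicate 1. The log2 fold change at 6 weeks was 1.77 (SE 0.375, edgeR adjusted p = 0.0699), and DESeq2 on the 2 groups gave 1.76 with an adjusted p = 0.00177. Without IRR_6w replicate 1 the edgeR value was 1.94 (edgeR adjusted p = 0.0385) and passed the limits. The effect at 1 day passed them without Control_6w replicate 3, at 2.44 (edgeR adjusted p = 0.0280), a library that was not in either of the 2 groups compared but shared their estimate of the spread. These were the only fits of the 14 that left out 1 library in which each effect passed, and the edgeR adjusted p of the others reached 1.0 at 1 day (without Control_1d replicate 1) and 0.231 at 6 weeks (without Control_6w replicate 2). Over all alternatives the log2 fold change ran from 2.22 to 2.92 at 1 day and from 1.52 to 2.05 at 6 weeks.

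Between the 2 irradiated groups Cdkn1a did not pass, at 0.18 on the log2 scale (SE 0.394, adjusted p = 0.999 in edgeR), and the groups overlapped. In the controls it was higher at 6 weeks than at 1 day by 0.86 (SE 0.403, edgeR unadjusted p = 0.0498, adjusted p = 0.902), with overlapping ranges. The irradiation effect at 6 weeks differed from that at 1 day by -0.68 (SE 0.557, edgeR adjusted p = 0.990), which did not pass. In the order of the 4 group means, Control_1d (37.6 ± 18.2 CPM, SD, n = 3) and Control_6w (68.3 ± 28.6, n = 4) overlapped, as did IRR_1d (204 ± 43.7, n = 3) and IRR_6w (232 ± 61.5, n = 4), while Control_6w and IRR_1d did not. An antisense gene, AC167363.2, shares 7.68% of the exonic bases of Cdkn1a. It had 0 counts in each Control_1d library and 35, 2 and 8 in IRR_1d, and 2 to 14 in Control_6w and 1 to 41 in IRR_6w, against 301 to 5429 per library for Cdkn1a. Whether reads were counted by strand is not given in the sources used here, so that reads of the 2 genes may not be separated.

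The first start of Cdkn1a is shown because it held the only match near the p53 consensus among the inhibitors and cyclins with a window. RefSeq (GRCm38.p6) gave 11 windows for 7 of the 10 genes, from 250 bases before to 50 bases after a start, and the table held none for Cdkn1c, Ccnd1 and Ccnd2. A p53 response element (both half-sites, no spacer, either strand) was found letter for letter in 0 of the 11 windows and in 0.00913% of all 32851 windows. With 1 letter outside the consensus allowed, a setting chosen after the exact search, it was found in 1 window, the first of Cdkn1a, and in 0.0883% of all windows. The window of the second Cdkn1a start, at 29093769, held 0 such matches. The element lies at chr17:29090928-29090947 and ends before the start at 29090979. The 250 bases before that start, at chr17:29090729-29090978 on the plus strand, are printed with the element in capitals.
Cdkn1a: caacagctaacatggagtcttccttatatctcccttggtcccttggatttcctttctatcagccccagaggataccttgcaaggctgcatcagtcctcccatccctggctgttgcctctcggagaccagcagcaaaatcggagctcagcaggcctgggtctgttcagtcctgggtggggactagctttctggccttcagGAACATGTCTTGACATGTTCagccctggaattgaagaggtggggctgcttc
The match is a description of these letters, and binding of p53 there was not measured.

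Cdkn1b (ENSMUSG00000003031, chromosome 6, 134920401 to 134925513, plus strand) encodes p27, the CIP/KIP inhibitor typical of resting cells. It was at 66.5, 67.9 and 55.2 CPM in Control_1d and at 50.9, 48.7 and 57.0 CPM in IRR_1d, and the groups overlapped. In Control_6w it was at 75.7, 44.8, 160 and 49.5 CPM and in IRR_6w at 36.3, 37.5, 48.4 and 51.3 CPM. The highest control at 6 weeks was replicate 3, the library with thymocyte markers. Irradiated over control, the log2 fold change was -0.28 (SE 0.388, edgeR adjusted p = 1.0) at 1 day and -0.93 (SE 0.339, edgeR unadjusted p = 0.0157, adjusted p = 0.388) at 6 weeks. The 6-week value was -0.39 without Control_6w replicate 3, and it was -0.31 when IRR_6w replicate 1 and IRR_1d replicate 3 were left out as well.

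Cdkn1c (ENSMUSG00000037664, chromosome 7, 143458339 to 143461050, minus strand) encodes p57, an imprinted CIP/KIP inhibitor expressed from the maternal allele. It was at 22.5, 23.5 and 25.3 CPM in Control_1d and at 20.2, 18.7 and 17.6 CPM in IRR_1d. All irradiated hearts were below all controls at 1 day, but the log2 fold change was small at -0.33 (SE 0.457, edgeR adjusted p = 1.0), and with plain library totals the ranges overlapped. In Control_6w it was at 60.4, 33.2, 13.6 and 25.1 CPM, and in IRR_6w at 9.38, 11.8, 9.86 and 4.13 CPM. The groups did not overlap, and the lowest control was replicate 3 with its thymocyte markers. This was a log2 fold change of -1.91 (SE 0.409), or 26.6% of the control level, with an edgeR unadjusted p = 3.33e-04 and an adjusted p = 0.0709. DESeq2 on the 2 groups gave -1.91 with an adjusted p = 0.0161. Without Control_6w replicate 3 the edgeR value was -2.17 (edgeR adjusted p = 0.0335) and passed, and without Control_6w replicate 1, the highest control, it was -1.46 (edgeR adjusted p = 0.199). It passed in 1 of the 14 fits that left out 1 library, and the highest edgeR adjusted p was 0.226, without Control_6w replicate 2.

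Cdkn1c was also lower in IRR_6w than in IRR_1d, by 1.10 on the log2 scale (SE 0.426, edgeR unadjusted p = 0.0211, adjusted p = 0.754), with no overlap of the 2 groups. In the controls the time difference was 0.48 (SE 0.430, edgeR adjusted p = 0.922), with overlap. The irradiation effect at 6 weeks minus that at 1 day was -1.58 (SE 0.608, edgeR unadjusted p = 0.0207, adjusted p = 0.990). Gm44732 on the other strand shares 30.7% of the exonic bases of Cdkn1c and had at most 2 counts in a library, against 87 to 794 for Cdkn1c. Of 10 other genes of the imprinted region around Cdkn1c and Igf2, 8 were tested, and 0 passed by edgeR at either time. At 6 weeks their median log2 fold change was -0.01, beside -0.09 over all genes, and 1 (Nap1l4, a histone chaperone, at -0.52, SE 0.216, edgeR adjusted p = 0.490) had an unadjusted p under 0.05. Kcnq1ot1, the long RNA that silences the paternal copy of the region, was at -1.47 (SE 0.703, edgeR adjusted p = 0.583), and at -0.67 (SE 0.658, edgeR adjusted p = 0.766) without Control_6w replicate 3, which held 21.9 CPM against 5.05 to 6.4 CPM in the other 3 controls.

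Among the INK4 inhibitors, 0 of the 3 tested were called at either time. Cdkn2a (ENSMUSG00000044303, chromosome 4, 89274471 to 89294653, minus strand) encodes both p16 and p19Arf from transcripts that a count per gene does not separate. It had 0, 4 and 1 counts in Control_1d and 4, 0 and 5 in IRR_1d. It had 39, 3, 7 and 1 in Control_6w, and 6, 8, 0 and 17 in IRR_6w. The highest library was a control, Control_6w replicate 1. A count of 0 allows up to 3 counts at 95% confidence, or 0.188 CPM in Control_1d replicate 1, 0.257 in IRR_1d replicate 2 and 0.191 in IRR_6w replicate 3, for counting error only, and the first and the last of these are the libraries with the fewest genes counted. On log2(CPM + 1) the 2 groups differed by 0.05 at 1 day (two-sided exact permutation p = 1.0, smallest possible 0.1) and by -0.25 at 6 weeks (exact permutation p = 0.771, smallest possible 0.0286). A change in Cdkn2a was not detected.

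Cdkn2b (ENSMUSG00000073802, chromosome 4, 89306299 to 89311039, minus strand), which encodes p15 and lies beside Cdkn2a, was also sparse. It had 0, 10 and 8 counts in Control_1d and 21, 6 and 21 in IRR_1d. It had 23, 11, 44 and 5 in Control_6w, and 77, 14, 0 and 93 in IRR_6w. The IRR_6w hearts covered the whole range, from 0 counts in replicate 3 to 4.43 CPM in replicate 1. On the log2 scale the difference was 1.02 (SE 1.52) at 1 day and 0.83 (SE 1.28) at 6 weeks, with an edgeR adjusted p = 1.0 and 0.891. With single libraries left out, it ran from 0.43 to 1.82 at 1 day and from 0.37 to 1.31 at 6 weeks. With limma-voom the 2 values were 2.05 and -0.27.

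Cdkn2c (ENSMUSG00000028551, chromosome 4, 109660876 to 109667189, minus strand) encodes p18. It was at 20.4, 8.46 and 13.9 CPM in Control_1d and 13.02, 10.6 and 24.3 CPM in IRR_1d. At 6 weeks it was at 10.4, 10.02, 63.3 and 10.1 CPM in Control_6w and 35.7, 16.9, 5.41 and 2.90 CPM in IRR_6w. A single control, replicate 3, was far above the others, and the irradiated hearts lay on both sides of the remaining controls. The log2 fold change was 0.16 (SE 0.867) at 1 day and -0.63 (SE 0.751, edgeR adjusted p = 0.860) at 6 weeks, and it turned to 0.58 without Control_6w replicate 3.

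Cdkn2d (ENSMUSG00000096472, chromosome 9, 21288410 to 21291407, minus strand) encodes p19, the INK4 protein that is unrelated to p19Arf. It was at 6.39, 9.56 and 12.9 CPM in Control_1d and 15.5, 11.7 and 9.45 CPM in IRR_1d. At 6 weeks it was at 22.5, 14.9, 42.6 and 11.6 CPM in Control_6w, and 6.67, 11.3, 16.2 and 14.5 CPM in IRR_6w. The groups overlapped at both times, and replicate 3 was again the highest control at 6 weeks. Its log2 fold change was 0.34 (SE 0.486) at 1 day and -0.91 (SE 0.421, edgeR unadjusted p = 0.0473, adjusted p = 0.557) at 6 weeks, the latter being -0.43 without Control_6w replicate 3.

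**Figure D2:**
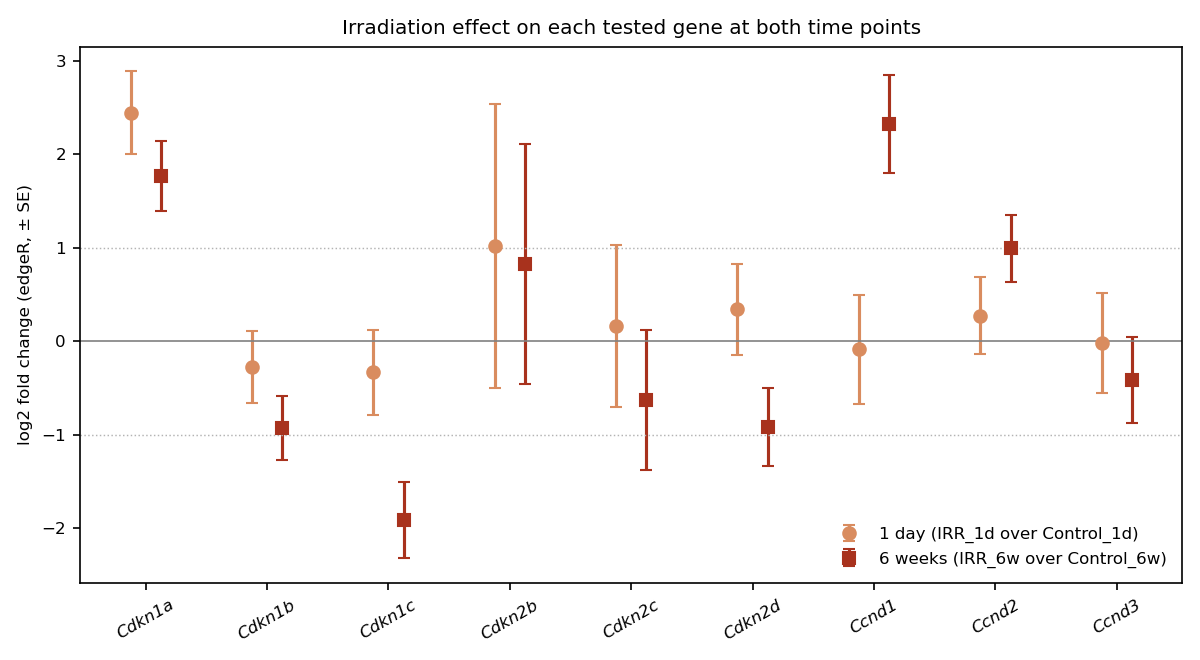
Log2 fold change (edgeR, ± SE) of the 9 tested genes 1 day after irradiation (circles) and at 6 weeks (squares), with dotted lines at a fold of 2 and 0.5. Cdkn1a was above the upper line at both times, Ccnd1 (2.33) at 6 weeks alone, and Cdkn1c (-1.91) was below the lower line at 6 weeks.

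Ccnd1 (ENSMUSG00000070348, chromosome 7, 144929931 to 144939925, minus strand) encodes cyclin D1, the D cyclin that mitogens and integrin signals induce. It was at 68.8, 65.7 and 104 CPM in Control_1d and at 77.2, 84.4 and 62.8 CPM in IRR_1d. These groups overlapped, and the log2 fold change at 1 day was -0.09 (SE 0.580, edgeR adjusted p = 1.0). At 6 weeks it was at 100.02, 93.4, 18.5 and 106 CPM in Control_6w and at 107, 422, 489 and 575 CPM in IRR_6w. The groups did not overlap, but IRR_6w replicate 1 was only just above the highest control, at 106.6 against 105.6 CPM, and the lowest control was again replicate 3. The log2 fold change was 2.33 (SE 0.526), which is 5.02-fold, with an edgeR unadjusted p = 5.45e-04 and an adjusted p = 0.0901. DESeq2 on the 2 groups gave 2.32 with an adjusted p = 0.00908. Without IRR_6w replicate 1, the library with lung epithelium and atrial markers, the edgeR value was 2.64 (edgeR adjusted p = 0.0160) and passed. Leaving out Control_6w replicate 3 gave 1.999 (edgeR adjusted p = 0.0743), and without both of these and IRR_1d replicate 3 it was 2.31 (edgeR adjusted p = 8.75e-04). Of the 14 fits that left out 1 library, 1 passed, and the highest edgeR adjusted p was 0.270 (0.2697), without IRR_6w replicate 4.

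The irradiated hearts also differed over time, with Ccnd1 higher in IRR_6w than in IRR_1d by 2.41 (SE 0.590, edgeR unadjusted p = 0.00104, adjusted p = 0.308) and no overlap of the groups. DESeq2 on the 2 groups gave 2.39 with an adjusted p = 2.18e-04, and edgeR without Control_6w replicate 3 gave 2.42 (2.415, edgeR adjusted p = 0.0431), the 1 of 14 fits without a library that passed, while the edgeR adjusted p reached 1.0 without IRR_1d replicate 1. In the controls the time difference was 0.00 (-7.70e-04, SE 0.542), and the ranges overlapped. The irradiation effect at 6 weeks minus that at 1 day was 2.41 (SE 0.778, edgeR unadjusted p = 0.00760, adjusted p = 0.990). It passed in 1 of 22 alternatives, without the 3 libraries named above, at 2.29 (edgeR adjusted p = 0.0312). Oraov1 on the other strand shares 23.4% of the exonic bases of Ccnd1, and its 142 to 286 counts per library compare with 325 to 12102 for Ccnd1. Its log2 fold change at 6 weeks was -0.33 (SE 0.258).

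Ccnd2 (ENSMUSG00000000184, chromosome 6, 127125162 to 127152193, minus strand) encodes cyclin D2. It was at 57.6, 101 and 144 CPM in Control_1d and 104, 107 and 155 CPM in IRR_1d. At 6 weeks it was at 152, 146, 46.9 and 140.2 CPM in Control_6w, and 210.7, 208, 280.2 and 270.2 CPM in IRR_6w. At 1 day the groups overlapped, and at 6 weeks every irradiated heart was above every control. For Ccnd2 the log2 fold change was 0.28 (SE 0.411, edgeR adjusted p = 1.0) at 1 day and 0.996 (SE 0.359, edgeR unadjusted p = 0.0145, adjusted p = 0.379) at 6 weeks, or 1.995-fold. It was 0.73 (edgeR adjusted p = 0.341) without Control_6w replicate 3, the lowest control. IRR_6w was above IRR_1d by 0.99 (SE 0.393, edgeR unadjusted p = 0.0247, adjusted p = 0.789), again with no overlap. DESeq2 on the 2 groups gave an adjusted p = 0.0200 for this difference, at a log2 fold change of 0.97, below the fold limit. On the other strand 9330179D12Rik and Gm43126 share 7.87% of the exonic bases of Ccnd2 and had at most 12 counts and 1 count in a library, where Ccnd2 had 823 to 5688.

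Ccnd3 (ENSMUSG00000034165, chromosome 17, 47505051 to 47599691, plus strand) encodes cyclin D3, which developing T cells need to expand. It was at 26.1, 38.3 and 57.5 CPM in Control_1d and 43.7, 29.4 and 47.0 CPM in IRR_1d. At 6 weeks it was at 63.6, 62.8, 258 and 48.4 CPM in Control_6w, and 57.7, 80.7, 91.8 and 95.2 CPM in IRR_6w. Control_6w replicate 3 was the highest of all libraries, and its 10 thymocyte markers were too. For Ccnd3 the log2 fold change was -0.02 (SE 0.535) at 1 day and -0.41 (SE 0.462, edgeR adjusted p = 0.847) at 6 weeks, and the latter turned to 0.48 without that library (edgeR adjusted p = 0.563). IRR_6w was above IRR_1d by 1.02 (SE 0.512, edgeR unadjusted p = 0.0652, adjusted p = 0.892), without overlap, and DESeq2 on the 2 groups called this difference (1.01, adjusted p = 0.0469). Bysl on the other strand shares 4.11% of the exonic bases of Ccnd3, with 225 to 733 counts per library where Ccnd3 had 343 to 4536, and its log2 fold change was -0.01 (SE 0.355) at 1 day and 0.37 (SE 0.307) at 6 weeks.

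The comparisons over time share their groups with the irradiation comparisons and are not independent of them. In the controls, 0 of the 9 genes were called by edgeR (0.0% of all genes) or limma-voom, 0 of 10 by DESeq2 on the 2 groups (0.2% of all genes), and 3 had an edgeR unadjusted p under 0.05 (5.28% of all genes), namely Cdkn1a, Cdkn2d at 1.25 (SE 0.468) and Ccnd3 at 1.42 (1.415, SE 0.520). For none of the 9 genes did the control groups lie entirely apart, upwards (3.39% of all genes) or downwards (2.53%). Without Control_6w replicate 3 the difference was 0.76 for Cdkn2d and 0.52 for Ccnd3, and only Cdkn1a, at 1.11, still had an unadjusted p under 0.05. In the irradiated mice, 0 of 9 were called by edgeR (0.0374% of all genes) or limma-voom, 3 had an edgeR unadjusted p under 0.05 (5.79% of all genes), and DESeq2 on the 2 groups called 2 (Ccnd1 and Ccnd3, against 2.27% of all genes). The IRR_6w hearts lay entirely above the IRR_1d hearts for the 3 D cyclins (5.47% of all genes) and entirely below them for Cdkn1c (3.84%). For the change in the irradiation effect, 0 of 9 passed by edgeR (0.0% of all genes), DESeq2 or limma-voom, and 2, Ccnd1 and Cdkn1c, had an edgeR unadjusted p under 0.05 (3.14% of all genes).

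Levels per length showed how each family was made up. In Control_1d, Cdkn1a, Cdkn1b and Cdkn1c held 28.3 ± 8.87%, 38.7 ± 3.72% and 32.9 ± 6.56% of the summed FPKM of the CIP/KIP inhibitors (SD, n = 3). In IRR_1d, Cdkn1a held 73.2 ± 3.66% (n = 3), and in IRR_6w it held 81.9 ± 3.79% (n = 4), between 76.3 and 84.5% in single hearts. In Control_6w its share ran from 16.9% in replicate 3, where Cdkn1b held 69.9%, to 54.7% in replicate 4. The share of Cdkn1c was 29.3 ± 13.6% in Control_6w and 5.78 ± 2.71% in IRR_6w (n = 4 each). The summed FPKM of the family was 36.1 ± 6.00 for Control_1d and 78.3 ± 12.6 for IRR_1d, then 53.6 ± 8.61 for Control_6w and 79.3 ± 18.3 for IRR_6w, and IRR_6w replicate 1, at 53.01, lay within the range of its controls.

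The D cyclins summed to 32.2 ± 10.5 FPKM for Control_1d and 33.4 ± 1.53 for IRR_1d (n = 3 each), then 42.1 ± 2.66 for Control_6w and 119.6 ± 48.3 for IRR_6w (n = 4 each). Every control and IRR_1d heart was at or below 44.7, and the IRR_6w hearts were at 51.6, 121, 144 and 162. Ccnd1 was 53.3 ± 7.32% of this sum in Control_1d and 47.8 ± 8.78% in IRR_1d. It was 47.56, 46.59, 10.25 and 52.35% of the sum in Control_6w replicates 1, 2, 3 and 4. In IRR_6w replicates 2, 3 and 4 it was 74.2, 72.1 and 75.5%. IRR_6w replicate 1 kept nearly equal parts of Ccnd1 (43.9%) and Ccnd2 (43.4%). In Control_6w replicate 3, Ccnd3 was 76.8% of the sum, against 12.9 to 16.8% in the other 3 controls, although the sum itself, 38.4 FPKM, was close to theirs. The ratio of summed CIP/KIP to summed D cyclin FPKM was 1.21 ± 0.437 for Control_1d against 2.33 ± 0.265 for IRR_1d, and 1.27 ± 0.165 for Control_6w against 0.726 ± 0.212 for IRR_6w, with the irradiated hearts all above their controls at 1 day and all below them at 6 weeks. The INK4 inhibitors summed to 11.95 ± 1.82 FPKM (n = 3) in Control_1d hearts, to 14.7 ± 2.53 (n = 3) in IRR_1d hearts and to 15.5 ± 3.82 (n = 4) in IRR_6w hearts. In Control_6w they were at 52.7 FPKM in replicate 3 and at 11.4 to 21.99 in the other 3 hearts. These sums and shares are descriptions without a test.

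**Figure D3:**
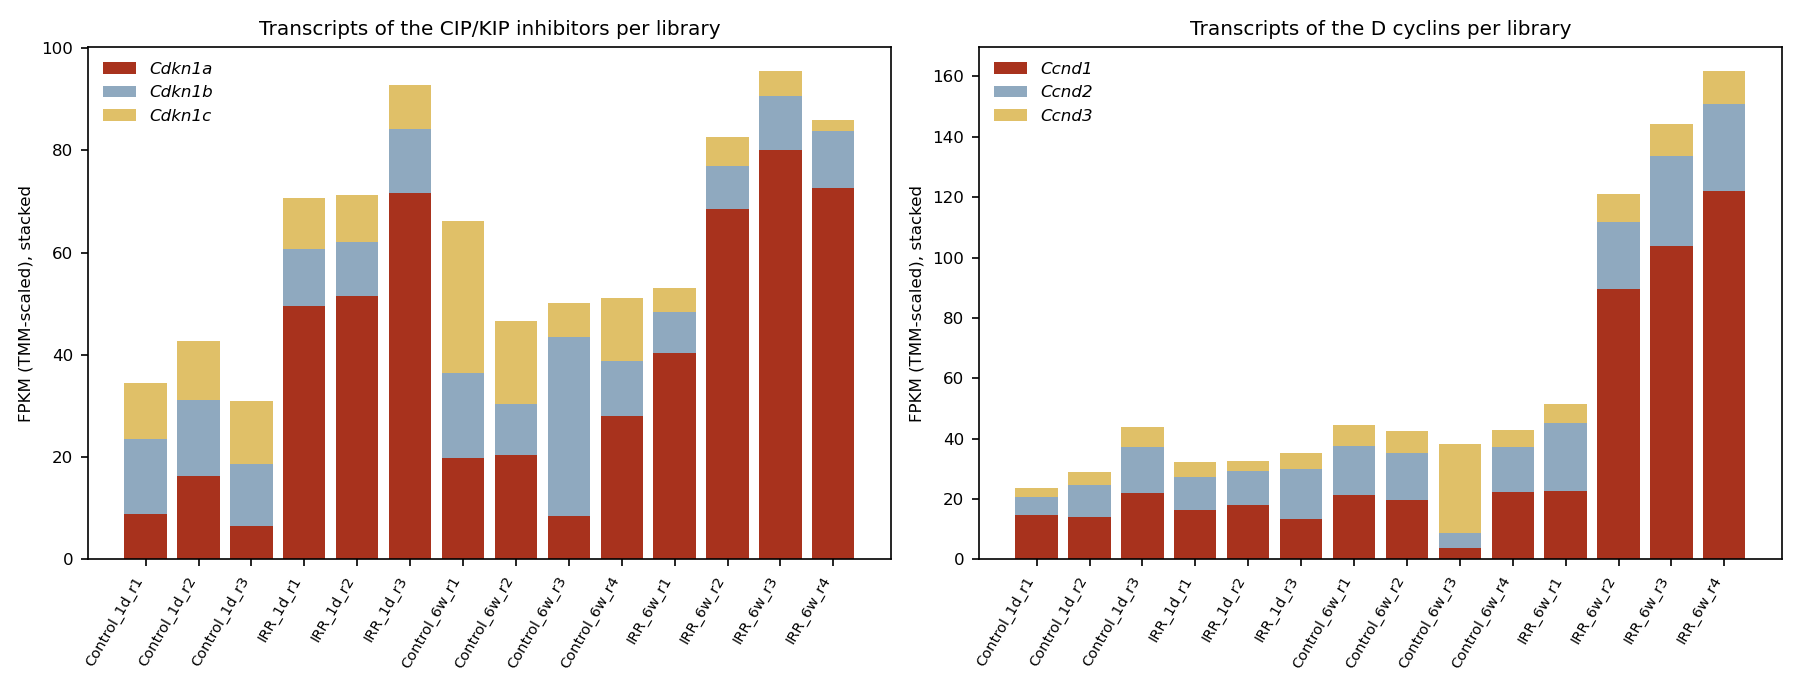
FPKM (TMM-scaled) of the 3 CIP/KIP inhibitors (left) and the 3 D cyclins (right), stacked in each of the 14 heart libraries. Cdkn1a made up 70.1 to 84.5% of the CIP/KIP bar in the irradiated hearts, and the D cyclin bar was between 121 and 162 FPKM in IRR_6w replicates 2, 3 and 4, where it was mostly Ccnd1, and at most 51.6 FPKM in the other hearts.

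Cdkn1a and Ccnd1 did not go together in all groups. The ratio of Cdkn1a to Ccnd1 FPKM was 0.691 ± 0.442 for Control_1d against 3.75 ± 1.40 for IRR_1d, and 1.345 ± 0.560 for Control_6w against 0.979 ± 0.545 for IRR_6w. Over the 14 libraries, Spearman's rho was 0.495 between these genes, a description over mice of 4 groups that differ in treatment. Ccnd1 and Ccnd2 had a rho of 0.789. Leaving out Control_6w replicate 3 brought Ccnd3 closer to the other D cyclins, with rho going from 0.464 to 0.830 with Ccnd1 and from 0.503 to 0.879 with Ccnd2 (13 libraries). Cdkn1a and Cdkn1c ran opposite, at -0.635 over 14 libraries and -0.775 over 13.

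**Figure D4:**
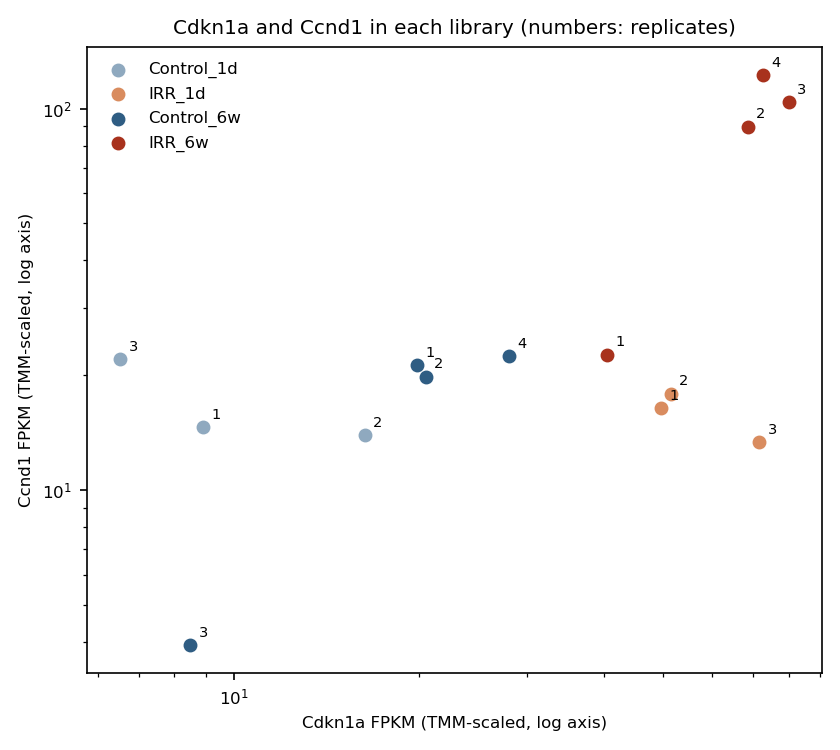
FPKM (TMM-scaled) of Cdkn1a and Ccnd1 in the 14 heart libraries on log axes, coloured by group and numbered by replicate. The 3 IRR_1d hearts were high in Cdkn1a with Ccnd1 at 13.3 to 17.9 FPKM, IRR_6w replicates 2, 3 and 4 were high in both with Ccnd1 at 89.7 to 122 FPKM, and IRR_6w replicate 1 had Ccnd1 at 22.6 FPKM.

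Other genes of the pathway were followed in lists that were chosen with earlier results of these data known. For comparison, an edgeR unadjusted p under 0.05 was reached by 2.9% of all genes at 1 day and 8.81% at 6 weeks. Of 9 kinases of G1 and partners of them other than the D cyclins, 0 had an edgeR unadjusted p under 0.05 at 1 day. At 6 weeks 3 were lower at that level (Ccnh, a subunit of the kinase that activates CDKs, at -0.64, SE 0.273; Ccne2, cyclin E2, at -1.54 (-1.535), SE 0.675; Cdk2 at -1.09, SE 0.495), and 0 were called by edgeR. Without Control_6w replicate 3 the count was 0 lower and 1 higher, with Ccne2 at -0.13 (SE 0.488), Cdk2 at -0.0067 (SE 0.251) and Ccnh at -0.48 (SE 0.275). Of 13 pocket proteins and E2F factors, 0 were called at either time, with a median log2 fold change of -0.55 at 1 day beside 0.06 over all genes. At 1 day 1 was lower and 0 higher at an edgeR unadjusted p under 0.05, Tfdp2, a partner of E2F factors, at -0.60 (-0.6018, SE 0.274, edgeR adjusted p = 1.0). E2f8, a repressive E2F factor, was at -3.54 (SE 1.60, edgeR adjusted p = 0.548) at 6 weeks. It was at 44.4 CPM in Control_6w replicate 3, at 0.459 to 1.89 CPM in the other 3 controls and at 0 to 2.77 CPM in IRR_6w. When that replicate was left out, E2f8 was at -0.06 (-0.05937, SE 1.43), the median of the list went from -0.15 to 0.41, and 2 genes were higher and 0 lower at an unadjusted p under 0.05 in place of 0 and 1.

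The 22 genes of the S and M phases had a median log2 fold change of -1.32 at 1 day, with 2 lower at an edgeR unadjusted p under 0.05 (Bub1 and Mki67) and 0 called. Bub1, a kinase of the spindle checkpoint, was at 1.32 ± 1.36 CPM in Control_1d and 0.0220 ± 0.0382 in IRR_1d (n = 3 each), and the groups overlapped. Mki67, the Ki-67 antigen of cycling cells, was at 13.2 ± 5.91 CPM in Control_1d and 1.47 ± 0.221 in IRR_1d (n = 3 each). The groups did not overlap, at -3.15 on the log2 scale (SE 1.40, adjusted p = 1.0 in edgeR). Top2a, the topoisomerase of dividing cells, was at 9.62 ± 2.09 and 1.24 ± 0.567 CPM in the same groups, also without overlap, with an unadjusted p = 0.0515 that did not reach that level (-2.97 on the log2 scale, SE 1.40, adjusted p = 1.0 in edgeR). At 6 weeks the median of the list was -1.81, with 3 genes lower at an unadjusted p under 0.05, and the control mean of Mki67 was 181 ± 342 CPM (181.4 ± 341.5). Without Control_6w replicate 3 the median turned to 1.24, with 4 of 22 genes higher and 0 lower at that level, beside a median of 0.0081 over all genes in that fit and 7.22% of all genes higher and 4.06% lower, so that the direction of this list at 6 weeks depended on the library with thymocyte markers.

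Of 25 p53 target genes other than Cdkn1a, 14 were higher and 0 lower at an edgeR unadjusted p under 0.05 at 1 day, with a median log2 fold change of 1.04, and 1 was called (Sesn2, a stress-induced inhibitor of mTORC1 signaling, with 39.3 ± 8.16 CPM in IRR_1d and 4.39 ± 2.66 in Control_1d, higher by 3.16 on the log2 scale with an SE of 0.428, adjusted p = 0.0235 in edgeR). Bax, the pro-apoptotic Bcl-2 family member, was at 2.15 (SE 0.424, edgeR adjusted p = 0.310). At 6 weeks 9 were higher and 1 lower at that level, the median was 0.39, and 2 were called. These were Eda2r, a receptor of the TNF receptor family, at 3.48 (SE 0.542, edgeR adjusted p = 0.0188), and Zmat3, an RNA-binding protein, at 2.10 (SE 0.351, edgeR adjusted p = 0.0252). Of the 25 targets, 22 had a log2 fold change above 0 at 1 day, beside 55.1% of all genes, and 18 at 6 weeks, beside 43.8%. Without Control_6w replicate 3, Eda2r was at 3.29 (edgeR adjusted p = 0.0461) and Zmat3, at 1.95 (edgeR adjusted p = 0.0505), was no longer called at 6 weeks.

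Of 20 genes of senescence and its secretory program, 19 were tested. At 1 day 2 were higher and 0 lower at an edgeR unadjusted p under 0.05, Gdf15, a stress cytokine that is also a p53 target, at 4.16 (SE 0.948, edgeR adjusted p = 0.551) and Mmp3, a matrix metalloproteinase, at 1.2 (SE 0.560, edgeR adjusted p = 1.0). At 6 weeks 9 were higher and 2 lower, beside 8.81% of all genes in either direction. The median log2 fold change of the list was 1.46, beside -0.09 over all genes. Icam1, a leukocyte adhesion molecule, was called (53.6 ± 19.9 CPM in IRR_6w and 18.1 ± 3.95 in Control_6w, higher by 1.57 on the log2 scale with an SE of 0.288, adjusted p = 0.0434 in edgeR). When Control_6w replicate 3 was left out, 7 were higher, 0 lower and 0 called, with Icam1 at 1.44 (1.435, SE 0.296, edgeR adjusted p = 0.0651). In that fit 7.22% of all genes were higher and 4.06% lower at an unadjusted p under 0.05. Of 21 known regulators of the inhibitors and cyclins, 0 had an unadjusted p under 0.05 at 1 day and 4 were lower and 0 higher at 6 weeks. Rnf2, a Polycomb subunit, was at -0.86 (SE 0.290, edgeR adjusted p = 0.326), and Ezh2, the Polycomb methyltransferase, was at -2.18 (SE 0.894, edgeR adjusted p = 0.476) with 136 CPM in Control_6w replicate 3, 3.37 to 7.38 CPM in the other 3 controls and 4.71 to 11.4 CPM in IRR_6w. Leaving out that replicate turned Ezh2 to 0.50 (0.5038, SE 0.431, edgeR adjusted p = 0.725) and brought Rnf2 to -0.44 (SE 0.202, edgeR adjusted p = 0.441), and 5 of 21 regulators were then lower and 1 higher at an unadjusted p under 0.05 (4.06% and 7.22% of all genes in that fit). Trp53 itself was at -0.49 (SE 0.357, edgeR adjusted p = 1.0) at 1 day.

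Marker lists moved with some of these groups. The 8 macrophage markers summed to 1128 to 1492 CPM in IRR_6w and 264 to 675 CPM in Control_6w, and the 7 fibroblast markers to 2334 to 3335 against 930 to 2188 CPM, without overlap. The 8 endothelial markers were at 1839 to 2571 against 1746 to 2295 CPM at 6 weeks, with overlap, and at 1459 to 1622 CPM in IRR_1d against 1779 to 2386 CPM in Control_1d, without overlap. None of the macrophage, fibroblast and endothelial markers was at 0 in a whole group. The 6 B cell markers summed to 0.58 to 2.32 CPM in IRR_1d and 4.73 to 32.9 CPM in Control_1d, and the 10 thymocyte markers to 1.72 to 2.18 against 2.62 to 6.16 CPM, also without overlap, with 5 of the 10 at 0 in all IRR_1d libraries and 2 in all Control_1d libraries. The part of these cell types in the values of Cdkn1a, Cdkn1c, Ccnd1 and Ccnd2 was not tested.

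The genes most like each inhibitor or cyclin over the 14 libraries, by Spearman's rho of log2 CPM, were taken from all 16034. For Cdkn1a they were Ifi204 (rho 0.934), P2rx7 (0.916) and P2ry6 (0.916). For Ccnd1 they were Nppb (0.934), Apln (0.934) and Rassf4 (0.925), and for Ccnd2 Tagln2 (0.974), Znfx1 (0.96) and Rgs12 (0.947). For Ccnd3 they were Traf1 (0.974), Csk (0.943) and Parvg (0.943). Cdkn1c was nearest to Aqp1 (0.930), Prickle1 (0.930) and Efna1 (0.925), and Cdkn1b to Kdm1a (0.873), Zfp949 (0.859) and Hsf2 (0.855). Among the INK4 inhibitors, Cdkn2b was nearest to Kcnk5 (0.934), Prx (0.921) and Epha3 (0.913), Cdkn2c to Car3 (0.968), Pck1 (0.956) and Echdc1 (0.947), and Cdkn2d to Eral1 (0.938), Hsdl1 (0.921) and Lrrc14 (0.908). These are the highest of 16034 values each, over libraries that share their groups, and they carry no test. With Pearson's r in place of rho, 2 of the 3 genes were the same for Cdkn2b, 1 for Ccnd1 (Apln), Cdkn1c (Efna1), Cdkn2c (Car3) and Cdkn2d (Hsdl1), and 0 for the other 4.

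**Figure D5:**
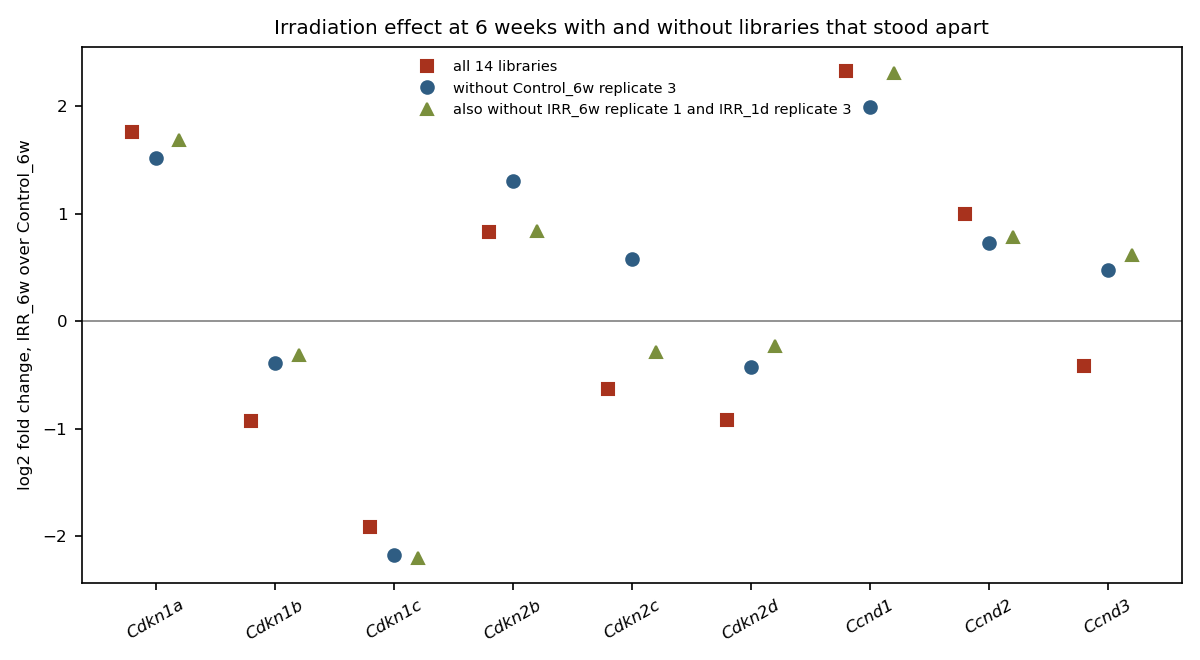
Log2 fold change of the 9 tested genes at 6 weeks (IRR_6w over Control_6w, edgeR) with all 14 libraries (squares), without Control_6w replicate 3 (circles) and also without IRR_6w replicate 1 and IRR_1d replicate 3 (triangles). Cdkn1a, Ccnd1 and Ccnd2 stayed above 0 and Cdkn1c below it, while Ccnd3 went from -0.41 to 0.48 and 0.61 and Cdkn2c from -0.63 to 0.58 and -0.28.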

How the data were processed

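Heart RNA of 14 mice was sequenced as 150-bp paired-end reads. The authors checked reads with FastQC 0.11.8, trimmed them with Trim Galore 0.6.1, used STAR 2.5.0a for alignment to the mm10 transcriptome and HTSeq for counting. They deposited whole-number counts per gene, not normalized, with coordinates and lengths. Strand, counting mode and annotation release are not given in the sources used here. Coordinates and lengths of the 10 genes equal those of GENCODE vM21.

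Counts were fitted with edgeR 4.0.16 (R 4.3.3) after filterByExpr, with TMM scaling and 1 model of the 4 groups, for 5 comparisons. The fold limits (2 and 0.5) and the adjusted p of 0.05 are those of the study. DESeq2 1.42.0, limma 3.58.1, other scalings, no filter, a replicate block and leaving out libraries served as alternatives. Of these, the fit without Control_1d replicate 1 and IRR_6w replicate 3 and the overlap by library totals were chosen after seeing the data. The fits were also tested on simulated data, and no value of that test is given here. With library totals as scaling, the median over all genes shifted on the log2 scale by 0.08 (1 day), 0.23 (6 weeks), 0.16 and 0.32 (time in controls and in irradiated mice) and 0.15 (change). The p-values measure the spread between mice.

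The genes and lists were chosen with earlier results of these data known. Names were given to all 10 genes, up to 3 genes with the smallest p per list and irradiation comparison, the 3 genes most like each tested gene, and up to 3 top markers of a library that stood apart. A gene that this rule named is not reported here.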

Additional observations from a re-analysis of the deposited data

Results flagged for a closer look

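In the groups of 4 mice, the gap of the highest or lowest library to its neighbour, divided by the range of the group, was above Dixon's limit at 95% for 5 of 20 groups of values (10 genes in Control_6w and IRR_6w). Chance alone gives about 1 in 20. In Control_6w, replicate 3 was the outlier for 4 genes, high for Cdkn2c (63.3 CPM, next 10.4, ratio 0.992) and Ccnd3 (258 CPM, next 63.6, ratio 0.928) and low for Ccnd1 (18.5 CPM, next 93.4, ratio 0.859) and Ccnd2 (46.9 CPM, next 140.2, ratio 0.886). This library also held the thymocyte markers. Its brown fat markers (4 genes) summed to 735 CPM, against 980 CPM in IRR_6w replicate 1 and at most 359 CPM in the other libraries. The part of either marker list in the 4 values was not tested. Replicate 1 of Control_6w was high for Cdkn2a (2.97 CPM or 39 counts, next 0.399 CPM, ratio 0.886). Testis germ cell markers (8 genes) summed to 77.9, 59.1 and 54.6 CPM in Control_6w replicates 1, 2 and 3 and to at most 0.301 CPM in the other 11 libraries, and their part in the Cdkn2a value was not tested.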

How the results depend on the processing

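Cdkn1a, Cdkn1b, Cdkn1c and Cdkn2d kept their direction in every alternative of both irradiation comparisons. So did Cdkn2b at 1 day and Ccnd1 and Ccnd2 at 6 weeks. Among these effects, the calls of Cdkn1a at both times and of Cdkn1c and Ccnd1 at 6 weeks depended on the setting. Each of the others was called in 0 of 24 alternatives. Of the 9 genes, 0 were called in each of the 5 comparisons. At 1 day the count was 1 (Cdkn1a) with DESeq2 on all libraries, DESeq2 on the 2 groups and edgeR with no filter, and 0 to 1 when single libraries were left out. The count at 6 weeks was 3 (Cdkn1a, Cdkn1c and Ccnd1) with DESeq2 on all libraries or on the 2 groups, with no filter and without the 3 libraries that stood apart (Control_6w replicate 3, IRR_6w replicate 1 and IRR_1d replicate 3), 2 with library totals, and 0 to 2 with single libraries left out. Over time in irradiated mice it was 1 with DESeq2 on all libraries and without the 3 libraries, 2 with DESeq2 on the 2 groups, and 0 to 1 with single libraries left out, where the 1 was Ccnd1 without Control_6w replicate 3. For the change it was 1 without the 3 libraries. At an unadjusted p under 0.05, the count over time in controls was 1 with edgeR on the 2 groups and without the 3 libraries, 0 without Control_1d replicate 1 and IRR_6w replicate 3, and 0 to 3 with single libraries left out (0 without Control_1d replicate 1). With single libraries left out it ran from 1 to 4 over time in irradiated mice (1 without IRR_1d replicate 1) and from 1 to 3 for the change (1 without Control_6w replicate 1). By edgeR on all libraries it was 3 of 9 in controls (5.28% of all genes) and 3 in irradiated mice (5.79%). For the change it was 2 (3.14%). The shares over all genes in these alternatives are not given here. With CPM by library totals, 1 gene (Cdkn1a) in place of 2 did not overlap at 1 day. By TMM-scaled CPM, 6.52% of all genes lay entirely above and 4.14% entirely below at 1 day. The share of all genes by library totals is not given here.

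Over all genes, edgeR called 4, 41, 0, 6 and 0 in the 5 comparisons (1 day, 6 weeks, time in controls, time in irradiated mice, change), DESeq2 on all libraries 33, 343, 28, 148 and 45, and edgeR with no filter 8, 138, 6, 26 and 9. DESeq2 on the 2 groups called 60, 352, 35 and 368 in the first 4. With library totals the counts were 2, 83, 0, 5 and 0, and without the 3 libraries 3, 180, 1, 105 and 29.

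Some log2 values turned sign, and the cause was not tested. Without the 3 libraries, Cdkn2c was -0.27 and Ccnd1 0.02545 at 1 day, Ccnd3 was 0.61 at 6 weeks, Cdkn1b -0.16, Cdkn2c -0.49 and Ccnd1 0.33 over time in controls, Cdkn2d 0.037 over time in irradiated mice, and Cdkn1b 0.031, Cdkn2b 0.041 and Ccnd3 0.76 for the change. Without the 2 libraries with the fewest genes, Ccnd2 was -0.0047 at 1 day and -0.018 over time in controls, Cdkn2c was 0.21 over time in irradiated mice and Cdkn2b 0.81 for the change. With library totals, Ccnd3 was 0.10 (0.1015) at 1 day, Ccnd1 0.078 over time in controls, and Cdkn1b 0.052, Cdkn2c 0.18 and Cdkn2d 0.33 over time in irradiated mice. With limma-voom, Ccnd3 was 0.043 at 1 day, and Cdkn2b -0.27 at 6 weeks and -0.19 over time in irradiated mice. With no filter, Ccnd1 was 0.0047 over time in controls.

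Leaving out single libraries gave, at 1 day, -0.26 to 0.52 for Cdkn2c, -0.19 to 0.18 for Ccnd1, -0.0047 to 0.65 for Ccnd2 and -0.26 to 0.35 for Ccnd3. The 6-week range was -1.49 to 0.58 for Cdkn2c and -0.66 to 0.48 for Ccnd3. Over time in controls it gave -0.16 to 0.61 for Cdkn1b, -0.49 to 1.07 for Cdkn2c, -0.18 to 0.33 for Ccnd1 and -0.018 to 0.63 for Ccnd2. Over time in irradiated mice it gave -0.93 to 0.36 for Cdkn2c and -0.17 to 0.20 (0.1958) for Cdkn2d. For the change it gave -0.98 to 0.40 (0.4014) for Cdkn2b, -1.65 to 0.42 for Cdkn2c and -0.78 to 0.50 (0.5045) for Ccnd3.

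For same-numbered libraries of different groups, the deviations of log2 CPM from the group means correlated between -0.364 and 0.422. Libraries with different numbers were not compared, so that this range does not show whether the numbers pair the mice. With the replicate block 0 of the 9 genes were called in each comparison, Cdkn1a, Cdkn1c and Ccnd1 were at 1.81, -1.91 and 2.29 at 6 weeks (edgeR adjusted p = 0.137, 0.127 and 0.216), and the block turned Ccnd3 to 0.067 at 1 day and Cdkn2c to 0.22 over time in irradiated mice. Cdkn2a and Cdkn2b had at most 39 and 93 counts in a library.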
